A study of Homo sapiens with 26 samples.

Results

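The shAMB line was made from KELLY, an established neuroblastoma cell line of human origin whose MYCN locus is amplified, and doxycycline switches on in it a short hairpin RNA directed against RUNX1T1. Its members were chosen by their labels alone, as the 3 libraries of this line made after 72 h with doxycycline and the 3 made after 72 h with the solvent DMSO, so that the line supplies 6 of the 26 libraries of the series. All 26485 genes of the count table were eligible, and 14905 passed the filter on low counts and were tested. The hairpin is carried by a doxycycline-inducible lentiviral vector that also encodes GFP (F1HUTG in the labels), and both shAMB groups carry it. The EV line carries the same vector without a hairpin and the sh4 line a different hairpin, each with 3 DMSO and 3 doxycycline libraries at 72 h. A further 8 libraries came from KELLY tumours in mice, of which 4 carry the label control and 4 the label RUNX1T1 knock-out, and their labels name no hairpin. By the text of the study its first hairpin was the one used in mice, a number that the labels tie to neither shAMB nor sh4. The methods of the study describe this first hairpin as built on a commercial siRNA sequence from Ambion and the other as placed upstream of it. They do not use the name shAMB for either. No source used here says that the replicates came from separate cultures, so that p-values measure the spread between these libraries. Table headings give Neg for a library taken here as DMSO and Pos for one taken as doxycycline, by the sense of the words only, and every direction given for the line rests on that reading.

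RUNX1T1, also known as ETO, belongs to a family of adaptor proteins that bind transcription factors and recruit histone deacetylases and co-repressors such as the LSD1 and CoREST complex. In neuroblastoma, a tumour of the sympathetic lineage, amplified MYCN drives growth, nucleotide synthesis and cell division, while sympathetic neurons are marked by noradrenaline synthesis, ion channels, synaptic vesicles and neurite outgrowth. The question put to these libraries was which genes respond when a hairpin against RUNX1T1 is induced.

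The targeted gene was examined first. RUNX1T1 was at 40.8, 42.003 and 39.9 CPM in the DMSO libraries and 41.3, 44.1 and 42.2 CPM in the doxycycline libraries. These groups overlapped (log2 fold change 0.06, SE 0.0546, adjusted p 0.378, and a log2 fold change of −0.02 under RLE size factors), and no fall of RUNX1T1 RNA was detected in the libraries labelled doxycycline, so that all directions below are between labels and not between measured levels of RUNX1T1. Its log2 fold change was −0.16 in EV, −0.11 in sh4 and −0.23 in the xenografts, none past the threshold. The study itself reports lower RUNX1T1 levels in KELLY cells given doxycycline, with each of its hairpins. The libraries measure RNA only, so that a fall of the protein in these cultures was not tested here. Noradrenergic markers were all expressed, with a summed level of 2990.3 to 3249 CPM with DMSO and 2999.7 to 3241 CPM with doxycycline over 10 of 10 markers. Epithelial markers summed to at most 1.18 CPM, leukocyte markers to at most 2.15 CPM and erythroid markers to at most 0.0267 CPM, with KRT5, KRT14, CDH1, CD3E, HBA1 and HBB at 0 in all 6 libraries. Schwann cell markers summed to 4.20 to 4.55 CPM with DMSO and 5.05 to 5.96 CPM with doxycycline, and CDH19 was at 0. The 10 mesenchymal markers, which neuroblastoma cells can express themselves, summed to 107 to 126 CPM with DMSO and 142 to 168 CPM with doxycycline, 7 of them averaged at least 1 CPM, and TWIST2 was at 0. Endothelial markers, led by VWF, went from 2.27 to 2.68 CPM with DMSO to 5.62 to 8.01 CPM with doxycycline. The 6 libraries held 38306162 to 54736733 counts, and their first principal component, with 83.7% of the variance, separated the doxycycline from the DMSO libraries.

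Most of the genes tested differed between the shAMB libraries labelled doxycycline and DMSO. With doxycycline 5602 genes were higher and 4238 lower than with DMSO (edgeR quasi-likelihood test, Benjamini-Hochberg adjusted p under 0.05, here called risen and fallen), which is 66% of the 14905 genes, 37.6% risen and 28.4% fallen. These shares are the background for every gene list below. With other scalings the balance was closer, with 4936 risen and 4853 fallen under RLE size factors. Large changes were mostly rises, since 2108 genes rose and 554 fell by at least 2-fold, and 566 rose and 61 fell by at least 4-fold. The median log2 fold change over all tested genes was 0.10, against which the medians of gene lists are to be read. Of the 9840 called genes, 6624 (67.3%) differed in the same direction from the effect of doxycycline in the EV line (adjusted p under 0.05 for the difference, which 45.5% of all tested genes reached, 23.7% upwards and 21.7% downwards), and 0 differed in the other direction. In the EV line itself 14 genes passed (0.0939% of those tested) and 879 had an unadjusted p under 0.05.

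The direction of change went with the level and base composition of a gene. In the lowest of 5 equal bins of mean CPM 45.7% of genes rose and 10.3% fell, whereas in the highest bin 22.1% rose and 47.2% fell. Across bins of transcript GC content the shares went from 18.7% risen and 45.2% fallen in the lowest to 64.8% and 4.89% in the highest. The median log2 fold change of that highest GC bin was 0.80 in shAMB, 0.24 in EV, −0.25 in sh4 and 0.11 in the xenografts, so that the GC trend had the same sign in EV and the opposite sign in sh4. Chromosomes rich in GC followed it, with 51.1% of genes on chromosome 19 risen and 11.2% fallen, against 26.2% and 39.4% on chromosome 4. A fit that removes trends with GC content and gene length gave 5809 risen and 4714 fallen genes, and list counts from it are given below for some of the lists. The part of library composition in the GC trend was not tested. Gene lists also differ in level, and the fit with trends removed does not remove the trend with level. List shares below are set against all tested genes and not against genes of like level. The part of level in them was not tested.

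**Figure D1:**
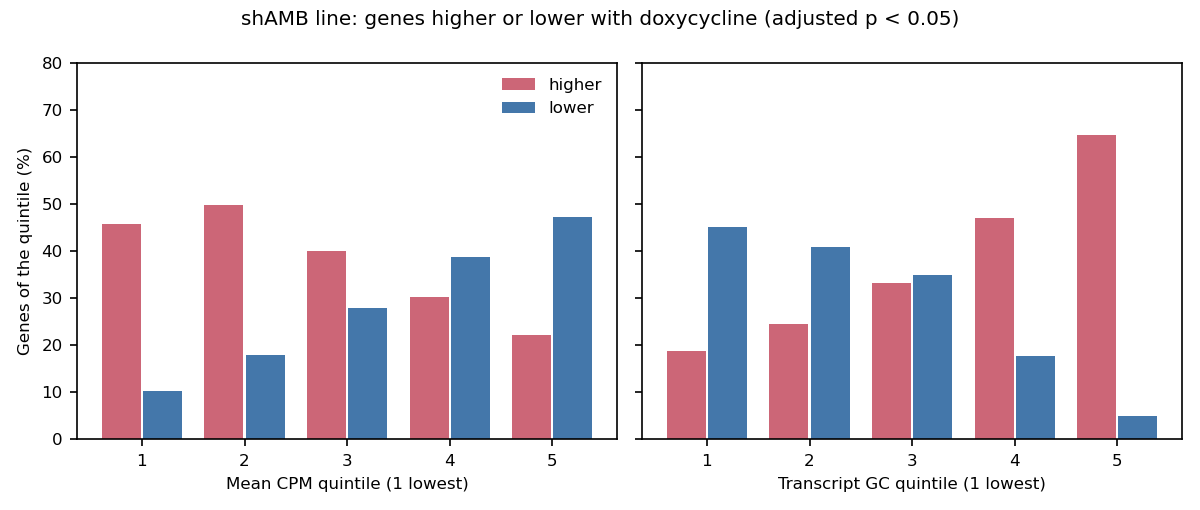
Share of tested genes (%, vertical axis) that were higher (red) or lower (blue) with doxycycline in the shAMB line, in 5 equal bins of mean CPM over the 18 culture libraries (left) and of transcript GC content (right). Rises prevailed among low and GC-rich genes and falls among abundant and GC-poor genes.

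Protein-coding genes were ranked if they averaged 5 CPM or more, had groups that did not overlap (as for 73.4% of all tested genes) and differed from the EV effect. SHISA2, an adaptor that restrains Wnt and FGF receptors, was at 0.296, 0.702 and 0.562 CPM in the DMSO libraries and 15.7, 15.1 and 15.5 CPM in the doxycycline libraries (log2 fold change 4.89, SE 0.207, adjusted p 2.1e-11). EGR1, a zinc finger factor induced within minutes of growth factor or synaptic signals, was at 2.07, 2.03 and 2.14 CPM in the DMSO libraries and 49.7, 56.6 and 61.4 CPM in the doxycycline libraries (log2 fold change 4.75, SE 0.0982, adjusted p 2.2e-14). Both were low in every DMSO library and far higher in all doxycycline libraries. ASS1, which makes argininosuccinate for arginine synthesis, was at 69.9, 59.5 and 74.6 CPM in the DMSO libraries and 689, 812 and 845 CPM in the doxycycline libraries (log2 fold change 3.52, SE 0.158, adjusted p 4.2e-11). LONRF2, a RING finger protein, went from 4.07 ± 0.501 to 53.6 ± 4.57 CPM (mean ± SD, n = 3 each; log2 fold change 3.72, SE 0.135, adjusted p 3.7e-12). VGF, a secreted neuropeptide precursor, was at 0.961, 1.35 and 1.23 CPM in the DMSO libraries and 8.69, 11.7 and 14.2 CPM in the doxycycline libraries (log2 fold change 3.29, SE 0.220, adjusted p 3.8e-09). The remaining rises were those of HMCN2, a hemicentin of the matrix (4.34 ± 0.371, log2 ± SE), PNMA3 (4.20 ± 0.249), MCHR1, the receptor of melanin-concentrating hormone (3.83 ± 0.198), ARC, a regulator of synaptic receptors (3.78 ± 0.336), and KCNK9, a potassium leak channel (3.28 ± 0.190). In the EV line these 10 genes had log2 fold changes of −0.33 to 0.75, none past the threshold. In the xenografts all 10 were higher in tumours labelled knock-out, from 1.71 for SHISA2 to 3.46 for ARC.

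Among the 10 strongest falls C7, a late complement component, fell furthest, and was at 11.3, 9.67 and 10.5 CPM in the DMSO libraries and 0.336, 0.332 and 0.392 CPM in the doxycycline libraries (log2 fold change −4.89, SE 0.140, adjusted p 2.6e-13). STMN1, which destabilises microtubules, was at 1623, 1757 and 1708 CPM in the DMSO libraries and 325, 313 and 269 CPM in the doxycycline libraries (log2 fold change −2.49, SE 0.0825, adjusted p 1.4e-12). NACA, a chaperone subunit at the exit of the ribosome, was at 916, 938 and 928 CPM in the DMSO libraries and 206, 195 and 186 CPM in the doxycycline libraries (log2 fold change −2.25, SE 0.0527, adjusted p 3.7e-14). In each of these genes every doxycycline library lay below every DMSO library by several times the spread within a group. PHGDH, the first enzyme of serine synthesis, was at 127, 108 and 136 CPM in the DMSO libraries and 24.9, 27.6 and 28.8 CPM in the doxycycline libraries (log2 fold change −2.19, SE 0.187, adjusted p 6.1e-08). ATOX1, a copper chaperone, went from 11.5 ± 1.34 to 1.85 ± 0.0666 CPM (−2.63 ± 0.202, log2 ± SE), and KIAA0101, the PCNA clamp-associated factor also called PCLAF, from 106 ± 4.96 to 17.05 ± 0.902 CPM (−2.63 ± 0.0708). The other falls were in LRRC4C, a netrin-G ligand (−2.74 ± 0.135), KITLG, the ligand of KIT (−2.48 ± 0.0836), GPX3, a secreted glutathione peroxidase (−2.36 ± 0.0929), and PAQR8, a membrane progestin receptor (−2.21 ± 0.0509). Of the 10, 9 also fell in the xenografts, and LRRC4C was at −0.28 there (adjusted p 0.162). In sh4, 4 of the 10 fell past the threshold (C7, GPX3, NACA and PAQR8), whereas KITLG rose slightly (0.21, adjusted p 0.0405).

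**Figure D2:**
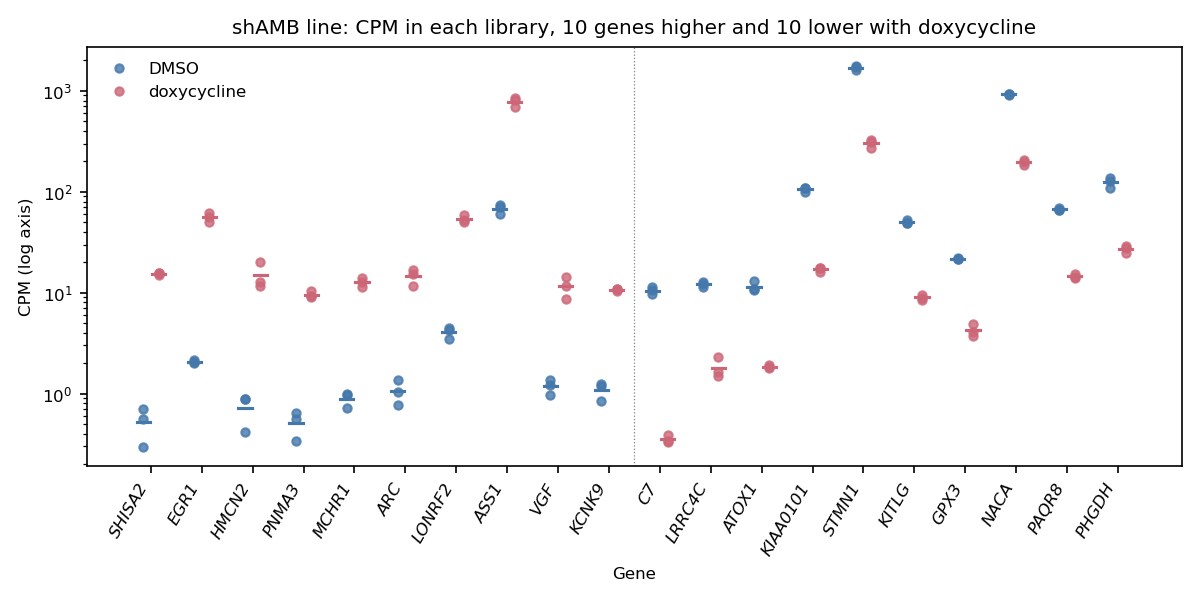
CPM (log axis) of the 10 ranked genes (mean of at least 5 CPM) with the largest rise and the 10 with the largest fall in the shAMB line, 1 point per library (DMSO blue, doxycycline red) with the mean of 3 libraries as a bar. The colours do not overlap for any of the 20 genes, since that was part of the selection.

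Measured per kilobase of deposited gene length, so that genes can be compared in level, the largest losses were in genes of protein synthesis and in 2 other abundant transcripts. EEF1A1, the main elongation factor of translation, went from 3418 to 1799 CPM per kilobase. PTMA, the acidic nuclear protein prothymosin alpha, went from 1874 to 501 CPM per kilobase, with single libraries at 2298, 2208 and 2262 CPM in the DMSO libraries and 616, 622 and 572 CPM in the doxycycline libraries (log2 fold change −1.90, SE 0.0411, adjusted p 2.2e-14). RGS5, an inhibitor of G protein signalling, went from 1832 to 713, and the ribosomal proteins RPS24 and RPS27 from 2749.9 to 1608 and from 3203 to 2129 CPM per kilobase. PTMA and RGS5 were at −0.05 and 0.06 in sh4, neither past the threshold, while EEF1A1 fell there as well (−0.77). The largest gains were in MYCN, from 1114 to 3306 CPM per kilobase, 28S ribosomal RNA (RNA28S5), from 1392 to 2474, the growth factor IGF2, from 188 to 683, RPL27, from 1552 to 1992, and ASS1, from 37.996 to 437. MYCN was at 2085, 2129.5 and 2170.0 CPM in the DMSO libraries and 5944, 6442 and 6561 CPM in the doxycycline libraries (log2 fold change 1.57, SE 0.0802, adjusted p 1.8e-10). MAX, its DNA-binding partner, was at 48.8, 48.1 and 49.5 CPM in the DMSO libraries and 33.3, 31.7 and 32.1 CPM in the doxycycline libraries (log2 fold change −0.59, SE 0.0549, adjusted p 1.6e-07), and thus moved the other way in every library. The rise of RPL27 was not past the threshold against EV (adjusted p 0.303). The share of ribosomal and small RNA genes in all counts was 0.717% to 0.822% with DMSO and 1.27% to 1.55% with doxycycline, and its part in the RNA28S5 gain was not tested.

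In several signalling pathways a larger share of genes rose than over all genes. RAS-MAPK feedback genes, the inhibitors and reporters that ERK activity induces, rose in 21 of 27 members and fell in 1, with a median log2 fold change of 0.86. The ETS factor ETV4 went from 8.63 ± 1.20 to 45.3 ± 5.80 CPM (log2 fold change 2.39, SE 0.206, adjusted p 6.7e-08) and the MAPK phosphatase DUSP8 from 2.06 ± 0.164 to 10.5 ± 2.00 CPM (2.35 ± 0.231), whereas the receptor tyrosine kinase inhibitor SPRY1 fell by 0.38 on the log2 scale. In this list 21 members were higher and 1 lower than the EV effect, and 18 of the called members changed in the same direction in the xenografts. Immediate early genes rose in 18 of 25 and fell in 4 (median 0.83), with EGR1 and ARC as described above. Within this list JUND, an AP-1 subunit, fell (−1.45 ± 0.0714), as did the nuclear receptor NR4A3 (−0.93 ± 0.0987), which rose in sh4 (0.93).

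Receptors and ligands of neurotrophin, GDNF and ALK signalling rose in 17 of 28 and fell in 4 (median 0.83). With GC and length trends removed, 14 of them rose and 4 fell (median 0.395). LTK, the close relative of ALK, rose from a low level (from 0.305 ± 0.163 to 2.77 ± 0.747 CPM), and the ligands KITLG (−2.48) and PTN (−0.35, adjusted p against EV 0.0582) fell. Notch ligands, receptors and the HES and ID factors rose in 21 of 28 and fell in 2 (median 0.76). The ligand DLL1 went from 1.48 ± 0.317 to 8.09 ± 0.689 CPM (log2 fold change 2.44, SE 0.199, adjusted p 3.6e-08) and ID3, an inhibitor of E proteins, from 35.2 ± 6.16 to 131 ± 16.9 CPM (1.90 ± 0.279), while RBPJ, the DNA-binding effector of Notch, fell (−0.51 ± 0.0671). In the xenografts DLL1 rose (1.97) and ID3 was at 0.17 (adjusted p 0.716). With GC and length trends removed, 16 rose and 5 fell in the Notch, HES and ID list, and its median was 0.27. TGF-beta and BMP genes rose in 25 of 47 and fell in 9 (median 0.35), led by the type I receptor ACVRL1 (2.58 ± 0.192) and the latent TGF-beta binding protein LTBP2 (2.30 ± 0.162), with falls in the type II receptor TGFBR2 (−1.23 ± 0.104) and in LTBP1 (−1.09 ± 0.0750). With trends removed 23 rose and 11 fell in this list (median 0.15). ACVRL1 fell in sh4 (−0.80) and was at 0.18 in the xenografts (adjusted p 0.647), where LTBP2 rose (2.08). In the retinoic acid pathway 7 of 16 members rose, among them the retinoid carrier CRABP2 (from 8.30 ± 1.56 to 48.8 ± 0.187 CPM) and the degrading enzyme CYP26B1 (from 1.43 ± 0.250 to 5.89 ± 0.813 CPM), and 2 fell. Its share of rises, 43.8%, was near that of all genes. With trends removed 6 rose and 2 fell in this pathway (median 0.06). Wnt genes were divided, with 18 of 44 risen and 15 fallen, and with trends removed 15 rose and 16 fell. The receptor FZD5 and the inhibitor DKK1 fell (−1.02 and −0.95), both of which rose in sh4 (0.60 and 1.15), and the ligand WNT2B rose (1.82).

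Genes of neuronal excitability rose in larger shares than all genes. Genes of low level did so in general. In the lowest and the next bin of mean CPM 45.7% and 49.9% of genes rose (median log2 fold change 0.65 and 0.37). Potassium channel genes summed to only 376 to 393 CPM with DMSO over 50 members. The part of level in the rises of these lists was not tested. Potassium channel subunits rose in 29 of 50 and fell in 3 (median 0.66), 18 of the rises by at least 2-fold. KCNK9, a tandem-pore channel of the TASK class, was at 0.838, 1.20 and 1.26 CPM in the DMSO libraries and 10.8, 10.4 and 10.8 CPM in the doxycycline libraries, and KCND3, an A-type channel, rose from 0.180 to 3.38 CPM (log2 fold change 4.21, SE 0.342, adjusted p 3.6e-08). KCNAB1, a beta subunit, fell (−1.76 ± 0.0747), and it fell in sh4 as well (−2.20). With trends removed, 25 rose and 7 fell in this list. Sodium and calcium channel genes rose in 17 of 27 and fell in 1 (median 0.41). The calcium channel subunit CACNA2D2 was at 37.3, 30.4 and 37.4 CPM in the DMSO libraries and 151, 162 and 188 CPM in the doxycycline libraries (log2 fold change 2.25, SE 0.166, adjusted p 1.2e-08). No library of one group reached the range of the other. CACNA2D2 also rose in the xenografts (1.70). Neurotransmitter receptors rose in 17 of 34 and fell in 5, with the muscarinic receptor CHRM1 (2.79 ± 0.237) and the NMDA receptor subunit GRIN1 (1.44 ± 0.274) highest and the GABA receptor subunit GABRA5 (−1.12 ± 0.107) and the glutamate receptor GRM8 (−0.55 ± 0.0639) lowest. The GRIN1 rise did not differ from the EV effect past the threshold (adjusted p 0.0679).

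Synaptic and guidance genes also rose in larger shares than all genes. Of the 47 genes of synaptic vesicles and the active zone, 30 rose and 8 fell (median 0.50), and with trends removed 27 rose and 14 fell. The vesicle calcium sensor SYT5 went from 2.61 ± 0.505 to 8.92 ± 0.744 CPM and the synaptic adhesion protein NRXN2 from 12.7 ± 1.40 to 41.1 ± 6.73 CPM, whereas RAB27B, which docks secretory vesicles, fell from 43.9 ± 1.24 to 11.6 ± 0.758 CPM (log2 fold change −1.92, SE 0.0999, adjusted p 2.2e-10) and NRXN3 fell by 0.98 on the log2 scale. Axon guidance genes rose in 41 of 62 and fell in 11 (median 0.57), and with trends removed 33 rose and 11 fell (median 0.26). PLXNA4, a semaphorin receptor, was at 33.98, 29.7 and 30.3 CPM in the DMSO libraries and 200.2, 183 and 237 CPM in the doxycycline libraries (log2 fold change 2.72, SE 0.106, adjusted p 8.0e-12) and rose to a like extent in the xenografts (2.64). NTN1, the ligand netrin-1, rose from a low level (from 0.329 ± 0.136 to 2.74 ± 0.500 CPM), and the semaphorins SEMA5A (−1.20) and SEMA3E (−0.97) fell. The neuronal cytoskeleton was divided, with 22 of 43 risen and 14 fallen, and with trends removed 21 rose and 19 fell (median −0.03). Its intermediate filament SYNM (1.96 ± 0.0649) and tubulin TUBB2A (1.40 ± 0.218) rose, and the stathmins STMN1 and STMN2, which take up free tubulin, fell. STMN2 went from 483 ± 16.9 to 165 ± 16.2 CPM (log2 fold change −1.55, SE 0.0728, adjusted p 6.8e-11). SYNM rose in the EV line too (0.85), though less (adjusted p of the difference 9.6e-08). Granins and neuropeptides rose in 10 of 21 and fell in 6. SSTR2, a somatostatin receptor, went from 3.91 ± 0.443 to 23.8 ± 0.331 CPM (2.61 ± 0.110), and its ligand SST fell from 32.4 ± 1.63 to 10.04 ± 0.543 CPM (−1.69 ± 0.0752).

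Genes of catecholamine handling and protocadherins departed from this pattern. In noradrenaline synthesis, storage and breakdown 9 of 18 genes fell and 5 rose (median −0.21). TH, the rate-limiting enzyme of catecholamine synthesis, was at 8.45, 6.16 and 8.08 CPM in the DMSO libraries and 30.9, 40.2 and 48.2 CPM in the doxycycline libraries (log2 fold change 2.39, SE 0.387, adjusted p 6.0e-05). In the xenografts TH was at 0.36 (adjusted p 0.570). MAOA, which breaks the amines down, was at 332, 343 and 335 CPM in the DMSO libraries and 105, 106 and 95.1 CPM in the doxycycline libraries (log2 fold change −1.72, SE 0.0571, adjusted p 1.4e-12), and the vesicular transporter SLC18A1 fell from 16.1 ± 0.730 to 6.87 ± 0.328 CPM. The synthesis enzyme and the breakdown enzyme moved in opposite directions, with no overlap between groups for either. Protocadherins fell in 20 of 61 and rose in 5 (median −0.23), which is a share of falls near the background and a share of rises well under it. PCDH19 went from 42.5 ± 0.476 to 14.8 ± 1.01 CPM (log2 fold change −1.52, SE 0.0568, adjusted p 5.1e-12) and PCDHB5 from 27.3 ± 2.20 to 11.5 ± 0.851 CPM (−1.25 ± 0.0687), and both fell in the xenografts (−2.71 and −1.56). PCDHAC1 and PCDHAC2, the isoforms that end the alpha cluster, rose (1.40 and 0.92). Protocadherin isoforms of the alpha and of the gamma cluster share their last exons, so that the division of reads within each of these clusters is uncertain.

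At the cell surface, collagens rose in 15 of 26 and fell in 3 (median 0.75), and with trends removed 10 rose and 5 fell with a median of 0.13. COL16A1 and COL7A1 rose from low levels (from 0.449 ± 0.0979 to 2.71 ± 0.630 CPM and from 1.03 ± 0.474 to 5.44 ± 1.57 CPM), while the fibrillar chain COL3A1 fell from 33.7 ± 3.33 to 14.3 ± 1.11 CPM (log2 fold change −1.23, SE 0.0906, adjusted p 1.1e-08) and the basement membrane chain COL4A1 from 32.8 ± 1.59 to 18.2 ± 1.09 CPM (−0.85 ± 0.0985). Integrins and laminins rose in 18 of 30 and fell in 7 (median 0.60). The laminin receptor subunit ITGA3 rose (2.38 ± 0.230) and the alpha subunits ITGA9 (−1.58 ± 0.105) and ITGA4 (−1.27 ± 0.0964) fell, so that members of one family changed in opposite directions. Among matrix proteases ADAMTS15 (3.22 ± 0.346) and MMP11 (2.42 ± 0.368) rose and ADAMTS19 (−2.04 ± 0.0946) and ADAMTS12 (−1.30 ± 0.126) fell, in a list with 17 rises and 9 falls among 36. Ganglioside genes are of interest in neuroblastoma because GD2 is its antibody target. Of 21 such genes 5 rose and 8 fell. ST8SIA1, the GD3 synthase, fell from 2.13 ± 0.196 to 0.584 ± 0.0627 CPM (log2 fold change −1.87, SE 0.176, adjusted p 1.8e-07), and GM2A, a cofactor of ganglioside breakdown, fell from 16.9 ± 0.723 to 3.89 ± 0.208 CPM (−2.11 ± 0.0759), whereas B4GALNT1, the GM2 and GD2 synthase, rose (0.68 ± 0.153, adjusted p against EV 0.0502). Enzymes of glycosaminoglycan synthesis rose in 11 and fell in 13 of 37, led by HS6ST3 (1.40) and by HS3ST4 (−1.96), which fell equally in sh4 (−1.96).

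Genes of interferon response and antigen presentation rose in larger shares than all genes. Interferon-stimulated genes rose in 20 of 29 and fell in 2 (median 0.64), and with trends removed 21 rose and 2 fell. DTX3L, a ubiquitin ligase of the antiviral response, had 2, 0 and 1 counts in the DMSO libraries and 111, 145 and 128 in the doxycycline libraries. It rose in sh4 as well (3.94), and the EV libraries held at most 5 counts each. LGALS3BP, a secreted galectin ligand, went from 1.65 ± 0.299 to 5.46 ± 0.793 CPM (1.73 ± 0.218), while the RNA-editing enzyme ADAR (−0.38) and STAT2 (−0.24) fell. Class I antigen presentation rose in 11 of 17 and fell in 4 (median 0.87). TAP2, a subunit of the peptide transporter, was at 1.58, 1.43 and 1.39 CPM in the DMSO libraries and 11.6, 13.4 and 13.9 CPM in the doxycycline libraries (log2 fold change 3.14, SE 0.139, adjusted p 3.6e-11), and NLRC5, the activator of class I genes, rose from a low level (from 0.422 ± 0.101 to 3.09 ± 0.622 CPM). The chaperones CANX and PDIA3, which serve all secreted proteins, fell (−0.53 and −0.35). Summed leukocyte markers were at 0.641 to 0.776 CPM with DMSO and 1.41 to 2.15 CPM with doxycycline, with CD3E at 0 in all 6 libraries, and their part in these rises was not tested. NF-kappaB genes rose in 13 of 31 and fell in 8, with TNFAIP2 (2.41) highest and the inhibitory adaptor TRAF3 (−1.36 ± 0.0856) lowest, and complement genes in 3 and 3 of 14, shares near or below those of all genes.

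**Figure D3:**
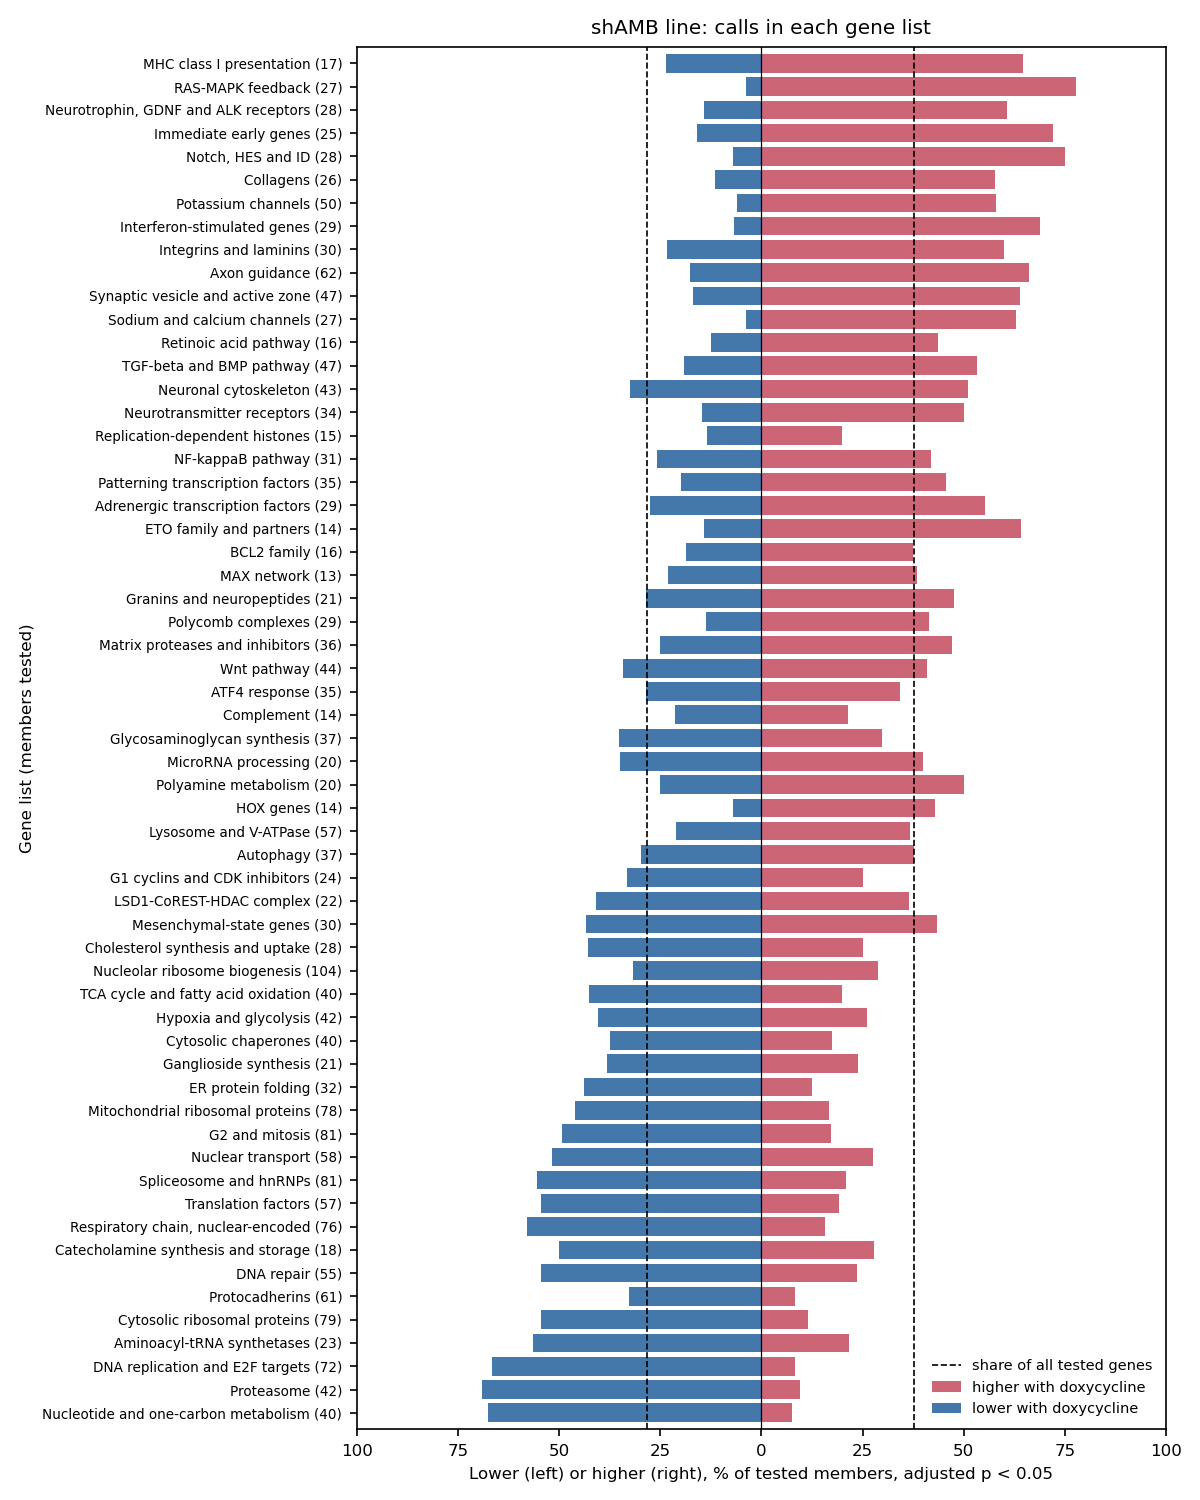
Percent of the tested members of the gene lists that rose (red, right) or fell (blue, left) in the shAMB line, ordered by median log2 fold change, with the number tested in parentheses. Dashed lines mark the shares of all tested genes, 37.6% risen and 28.4% fallen, which RAS-MAPK feedback genes and potassium channels exceed to the right and proteasome genes and DNA replication genes to the left.

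In growth and protein turnover a larger share of genes fell than over all genes. Nucleotide and one-carbon enzymes fell in 27 of 40 and rose in 3 (median −0.34). The serine and folate steps PHGDH and SHMT1 fell most (−2.19 and −1.12), and SHMT1 rose in sh4 (0.55). CAD, which starts pyrimidine synthesis, rose (0.75, adjusted p against EV 0.0346). Of the called members 23 changed in the same direction in the xenografts and 0 in the opposite one. Proteasome genes fell in 29 of 42 and rose in 4 (median −0.34). PSMB5, a catalytic subunit of the core particle, was at 185, 178 and 208 CPM in the DMSO libraries and 79.99, 89.2 and 84.8 CPM in the doxycycline libraries (log2 fold change −1.17, SE 0.101, adjusted p 6.7e-08). PSMB4 fell to a like extent (−0.98 ± 0.0959), whereas PSME1, a subunit of the interferon-induced activator, rose (1.03 ± 0.0760).

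Cytosolic ribosomal protein genes fell in 43 of 79 and rose in 9 (median −0.25), with RPL30 (from 678 ± 32.7 to 229 ± 18.2 CPM) and RPS10 (from 389.9 ± 48.3 to 156 ± 11.05 CPM) lowest. The 9 rises, led by RPS28 (1.09 ± 0.377) and RPS15 (0.96 ± 0.317), included 0 that differed from the EV effect. These genes have many processed copies in the genome, and their levels are uncertain. Translation factors rose in 11 and fell in 31 of 57. The falls included the termination factor GSPT1 (from 354 ± 15.7 to 149 ± 8.64 CPM) and the initiation inhibitor EIF4EBP2 (from 283 ± 9.13 to 121 ± 4.63 CPM). EIF3C shares nearly all its sequence with another gene copy, and its high estimate (3.30 ± 0.837) is uncertain. Aminoacyl-tRNA synthetases rose in 5 and fell in 13 of 23, splicing factors rose in 17 and fell in 45 of 81, and nuclear transport genes rose in 16 and fell in 30 of 58. With trends removed 19 splicing factors rose and 38 fell (median −0.06). For nuclear transport genes 19 then rose and 27 fell (median −0.01). Against the trend of splicing factors PTBP2, the neuronal paralogue of the polypyrimidine tract binding protein, was at 55.6, 59.6 and 54.7 CPM in the DMSO libraries and 211, 207 and 183 CPM in the doxycycline libraries (log2 fold change 1.82, SE 0.0769, adjusted p 2.0e-11), and it rose in the xenografts (2.07) while sh4 was at 0.04. Nucleolar factors of ribosome assembly had 30 rises and 33 falls of 104 (with trends removed 44 rose and 35 fell), with RRP9, which binds U3 snoRNA, up (1.34 ± 0.261) and the small-subunit factors CIRH1A (−0.73 ± 0.0463) and WDR75 (−0.54 ± 0.0825) down. Polyamine genes rose in 10 of 20 and fell in 5, with AMD1, which supplies the aminopropyl donor, at 232, 253 and 246 CPM in the DMSO libraries and 105, 101 and 90.9 CPM in the doxycycline libraries (log2 fold change −1.30, SE 0.0809, adjusted p 1.7e-09).

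Nuclear-encoded respiratory chain genes fell in 44 of 76 and rose in 12 (median −0.21), and in this list 39 members were lower and 1 higher than the EV effect. UQCRB of complex III went from 257 ± 10.1 to 96.99 ± 8.30 CPM (log2 fold change −1.40, SE 0.0830, adjusted p 9.6e-10) and NDUFB10 of complex I from 37.3 ± 3.14 to 15.8 ± 0.405 CPM (−1.24 ± 0.0964). NDUFS7 rose from 0.760 CPM (1.89 ± 0.609), but that rise was not past the threshold against EV (adjusted p 0.135). Mitochondrial ribosomal proteins rose in 13 and fell in 36 of 78. Genes of the TCA cycle and fatty acid oxidation rose in 8 and fell in 17 of 40, with falls in the thiolase ACAA2 (−1.16 ± 0.0482) and the carnitine transferase CPT2 (−1.10 ± 0.0833). Genes encoded by the mitochondrial genome were not analysed here. HIF1A, the oxygen-regulated subunit of HIF, was at 716, 752 and 696 CPM in the DMSO libraries and 343, 331 and 314 CPM in the doxycycline libraries (log2 fold change −1.13, SE 0.0738, adjusted p 2.9e-09), and of the 42 hypoxia and glycolysis genes 11 rose and 17 fell. Cholesterol genes rose in 7 and fell in 12 of 28.

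Genes of cell division fell in larger shares than all genes. Replication genes and E2F targets fell in 48 of 72 and rose in 6 (median −0.27), and 42 members changed in the same direction in the xenografts with 2 opposite. E2F7, a repressor of the E2F family that is itself induced at the start of S phase, was at 42.6, 45.3 and 43.3 CPM in the DMSO libraries and 13.2, 12.01 and 13.5 CPM in the doxycycline libraries (log2 fold change −1.77, SE 0.0580, adjusted p 1.4e-12), and it rose in sh4 (1.01). POLE2, a subunit of the leading-strand polymerase, fell from 47.5 ± 2.16 to 26.6 ± 1.36 CPM. The helicase subunit MCM5 (0.99 ± 0.269) and the polymerase POLD1 (0.98 ± 0.353) rose, without differing from EV past the threshold (adjusted p 0.148 and 0.304). Mitotic genes fell in 40 of 81 and rose in 14, with the kinetochore protein SPC25 (−0.99 ± 0.0822) and the ubiquitin conjugase UBE2C (−0.97 ± 0.0521) lowest. The share of falls among mitotic genes, 49.4%, was near the 47.2% of all genes in the highest bin of mean CPM. Repair genes rose in 13 and fell in 30 of 55, with falls in CHEK2 (−1.12 ± 0.0427) and BRCA1 (−0.76 ± 0.0588). With trends removed 19 rose and 27 fell among repair genes (median −0.10), 20 rose and 43 fell among mitotic genes, and 8 rose and 52 fell among replication genes. CDKN1A, the p21 inhibitor of cyclin-dependent kinases, fell from 22.5 ± 1.98 to 12.6 ± 1.57 CPM (log2 fold change −0.84, SE 0.137, adjusted p 6.4e-05).

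Promoter sequences, taken from 250 bases before to 50 bases after RefSeq gene starts (GRCh38.p14), were searched for the E2F site TTTCCCGC on both strands. It was found for 1.98% of the genes in the promoter table and 3.02% of the 11806 tested genes with a promoter, namely for 2.33% of risen, 3.79% of fallen and 3.11% of uncalled genes. Of the 62 replication genes with a promoter sequence 14 held it, and 8 of these fell and 1 rose. In the whole replication list 48 of 72 fell and 6 rose, so that holders did not fall in a larger share than the list. The 6 deepest falls among the holders, a set chosen after the values were seen, are shown as 30 bases on the coding strand of each gene with the motif, in either orientation, in capitals.
HELLS, chr10:94545769-94545798, plus strand: gatgacaggatTTTCCCGCgaaggagaagc
RFC3, chr13:33818083-33818112, plus strand: atttggagctcGCGGGAAAacttgtctctg
PCNA, chr20:5126663-5126692, minus strand: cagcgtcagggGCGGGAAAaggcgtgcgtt
UHRF1, chr19:4909476-4909505, plus strand: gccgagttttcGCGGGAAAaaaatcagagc
MCM3, chr6:52284898-52284927, minus strand: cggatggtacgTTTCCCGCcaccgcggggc
CDC7, chr1:91501033-91501062, plus strand: gtgcagttcctTTTCCCGCcccccttcgga
HELLS, a chromatin remodeller, fell by 0.82 on the log2 scale, the clamp loader subunit RFC3 by 0.58, the sliding clamp PCNA by 0.51, the methylation adaptor UHRF1 by 0.42, the helicase subunit MCM3 by 0.41 and the origin kinase CDC7 by 0.37. The E-box CACGTG, the preferred site of MYC and MAX dimers, was held by 12.4% of risen, 12.1% of fallen and 12.7% of uncalled genes (8.77% of all genes in the table). Of the 12 genes selected from the nucleolar, nucleotide and translation factor lists, 9 had a promoter sequence here and 2 held it, CIRH1A, which fell, and RRP9, which rose.
CIRH1A, chr16:69132621-69132650, plus strand: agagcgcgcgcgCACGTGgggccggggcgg
RRP9, chr3:51941892-51941921, minus strand: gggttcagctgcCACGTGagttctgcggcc
The E-box thus stood before a gene of either direction. The EGR site GCGGGGGCG was held by 12.5% of risen and 8.96% of fallen genes (6.14% of all), and with GC and length trends removed the median log2 fold change was 0.08 with the site and 0.04 without. The AP-1 site TGACTCA was held by 5.40% and 3.59% (6.05% of all). These matches describe letters in the sequence and not bound sites.

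Among regulators the counts were mixed. The LSD1, CoREST and HDAC list had 8 rises and 9 falls of 22 (with trends removed 6 rose and 12 fell), with RCOR2 (1.09 ± 0.198) and PHF21A (0.72 ± 0.0433) highest and HDAC1 (−0.66 ± 0.0360) falling, and with trends removed 6 rose and 12 fell. Polycomb genes rose in 12 of 29 and fell in 4, and with trends removed 14 rose and 10 fell. JARID2, which guides the H3K27 methyltransferase, was at 77.7, 74.3 and 78.8 CPM in the DMSO libraries and 196, 195 and 196 CPM in the doxycycline libraries (log2 fold change 1.35, SE 0.0352, adjusted p 1.1e-13), and was at −0.07 in sh4 (adjusted p 0.126). RUNX1T1 relatives and partners rose in 9 of 14 and fell in 2. LMO3, a LIM-only cofactor linked to neuroblastoma growth, was at 56.9, 62.3 and 58.8 CPM in the DMSO libraries and 16.3, 14.6 and 12.6 CPM in the doxycycline libraries (log2 fold change −2.03, SE 0.0933, adjusted p 5.5e-11), and its relative LMO2 rose from a low level (from 1.76 ± 0.487 to 5.20 ± 0.251 CPM). Noradrenergic transcription factors rose in 16 of 29 and fell in 8, with PHOX2A, a specifier of sympathetic neurons, going from 44.5 ± 6.66 to 131 ± 16.9 CPM (log2 fold change 1.56, SE 0.208, adjusted p 8.3e-06) and the zinc finger factor INSM2 from 357 ± 19.8 to 192 ± 10.1 CPM (−0.89 ± 0.0548). In the xenografts PHOX2A was at 0.30 (adjusted p 0.211) and INSM2 fell (−0.30, adjusted p 0.0119). Mesenchymal-state genes were split evenly (13 and 13 of 30). Of the patterning factors 16 of 35 rose and 7 fell (12 and 12 with trends removed), among them SOX9 (from 16.5 ± 0.858 to 37.98 ± 0.746 CPM) and the neurogenic NEUROD1 (from 6.06 ± 0.103 to 13.6 ± 0.764 CPM). MIR17HG, the host transcript of the miR-17 cluster and a target of MYC proteins, fell from 108 ± 2.11 to 45.7 ± 3.21 CPM (log2 fold change −1.24, SE 0.0841, adjusted p 4.4e-09).

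Lists of stress responses held single members with large changes. ER folding genes fell in 14 of 32 and rose in 4 (19 and 9 with trends removed), with the chaperone HSP90B1 going from 1220 ± 25.5 to 710.0 ± 31.97 CPM (log2 fold change −0.78, SE 0.0642, adjusted p 4.1e-08) and the HSP70 co-chaperone DNAJB9 rising (1.12 ± 0.0854). Cytosolic chaperones fell in 15 of 40 and rose in 7, with the co-chaperone BAG2 falling most (−1.54 ± 0.0752). ATG13, a subunit of the complex that starts autophagy, was at 66.6, 66.4 and 65.6 CPM in the DMSO libraries and 16.1, 17.1 and 17.98 CPM in the doxycycline libraries (log2 fold change −1.96, SE 0.0513, adjusted p 1.1e-13), whereas autophagy genes as a list rose in 14 and fell in 11 of 37. The ATF4 response had 12 rises and 10 falls of 35, and with trends removed 11 rose and 20 fell. Serine synthesis genes (PHGDH, and PSPH at −0.98) were lowest and CHAC1 (1.39, adjusted p against EV 0.0806) and STC2 (1.37) highest. Lysosome and proton pump genes rose in 21 and fell in 12 of 57, shares close to those of all genes. BCL2 family genes rose in 6 and fell in 3 of 16, led by the effector BOK (1.73 ± 0.244). Of the remaining lists, the MAX network rose in 5 and fell in 3 of 13, HOX genes in 6 and 1 of 14, microRNA processing genes in 8 and 7 of 20, G1 cyclins and CDK inhibitors in 6 and 8 of 24, and replication-dependent histones in 3 and 2 of 15. With trends removed 3 rose and 6 fell in the MAX network, 4 rose and 4 fell among HOX genes, and 2 rose and 2 fell among the histones.

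Some genes went from at most a few counts to clear counts. In all, 10 genes had at most 3 counts in every DMSO library and at least 30 in every doxycycline library, and 0 genes showed the reverse. Besides DTX3L, the genes of highest level were ADORA2A, PLSCR3, KRT16 and KRT9. ADORA2A, an adenosine receptor, had 0 counts in each DMSO library and 284, 494 and 478 in the doxycycline libraries. It reached 295 counts in an EV library or an sh4 DMSO library and 595 in an sh4 doxycycline library, and 56.8% of its exon sequence overlaps another gene on the same strand (76.3% for PLSCR3), so that both are uncertain. Against a floor of 3 counts per library ADORA2A was at least 112-fold higher. The keratin KRT16 had 2, 2 and 0 counts with DMSO and 71, 85 and 89 with doxycycline, and KRT9 had 0, 1 and 2 and 81, 88 and 68. EV and sh4 libraries held at most 15 counts of either.

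The sh4 hairpin is directed against the same gene, and its line was therefore set beside shAMB. In the sh4 line 6091 genes passed (40.9% of those tested, 22.9% higher and 18% lower). Genes called in the same direction in both lines numbered 2364, which is 24.0% of the shAMB calls and 38.8% of the sh4 calls, and those called in opposite directions numbered 1840, or 18.7% and 30.2%. Over all tested genes the difference between the lines passed the threshold for 60.9%. CHRM1, the M1 muscarinic receptor, was at 2.41, 1.82 and 2.51 CPM in the DMSO libraries and 12.7, 16.7 and 17.5 CPM in the doxycycline libraries, and it went from 3.48 to 0.409 CPM in sh4 (log2 difference between lines 5.90, SE 0.373, adjusted p 4.5e-09). TH, VGF, SYT5 and the kinase CAMKK1 likewise rose in shAMB (2.39, 3.29, 1.77 and 1.64) and fell in sh4 (−1.40, −1.32, −1.27 and −1.35). CARTPT, which encodes the neuropeptide precursor CART, was at 23.8, 23.1 and 22.1 CPM in the DMSO libraries and 9.02, 9.04 and 7.62 CPM in the doxycycline libraries, and went from 13.7 to 70.5 CPM in sh4. E2F7, DKK1, the metalloprotease ADAMTS9 and the glycogen regulator PPP1R3B also fell in shAMB (−1.77, −0.95, −1.06 and −1.15) and rose in sh4 (1.01, 1.15, 0.93 and 1.13). In the EV line these 10 genes lay between −0.30 and 0.75, and none passed. They were ranked on both effects, so that their opposite signs are a description.

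**Figure D4:**
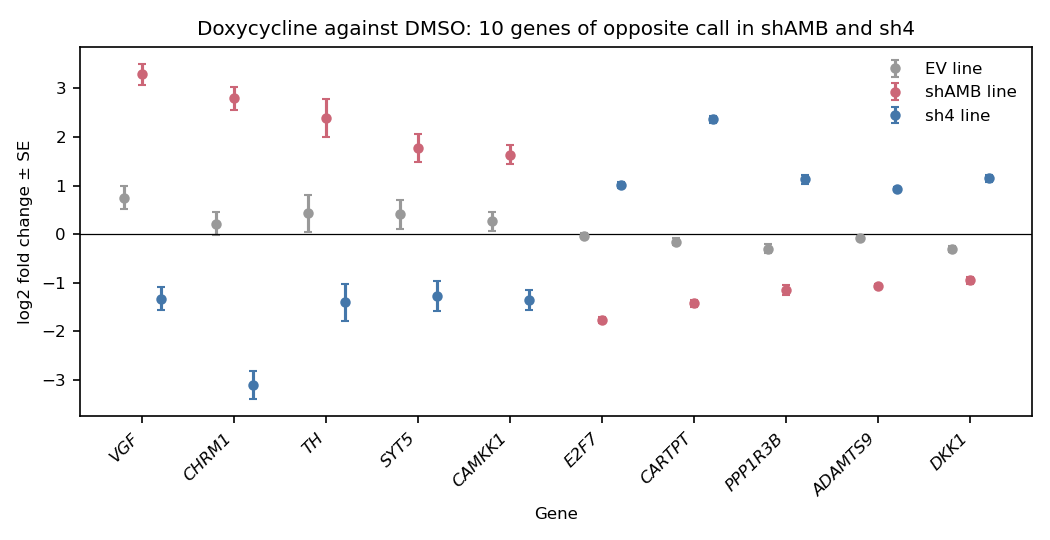
Log2 fold change with doxycycline (vertical axis, points with SE bars) of the 10 genes ranked highest for opposite calls in the shAMB (red) and sh4 (blue) lines, with the EV line (grey). Red and blue points lie on opposite sides of 0 for each gene, as the ranking requires, and grey points lie between them.

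The xenografts share no library with the shAMB line. Of the 14670 genes tested in both, 4973 were called in the same direction, which is 51.0% of the shAMB calls and 81.0% of the xenograft calls (2525 higher and 2448 lower in both). Opposite calls numbered 98, or 1.01% and 1.60%. In the xenografts alone 41.1% of tested genes passed, 21.2% higher and 19.9% lower. Among the 2576 genes called in shAMB with at least a 2-fold change, 1553 were called in the same direction and 18 in the opposite direction. Replication genes had a lower median in the tumours (−0.56) than in culture (−0.27), and ribosomal protein genes too (−0.51 against −0.25), while MAPK feedback and immediate early genes were high in both (0.66 and 0.89 in the tumours). Notch, HES and ID genes and neurotrophin, GDNF and ALK receptors, with medians of 0.76 and 0.83 in shAMB, were at 0.11 and, near 0, −0.00096 in the tumours. These differences between culture and tumours were not tested.

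**Figure D5:**
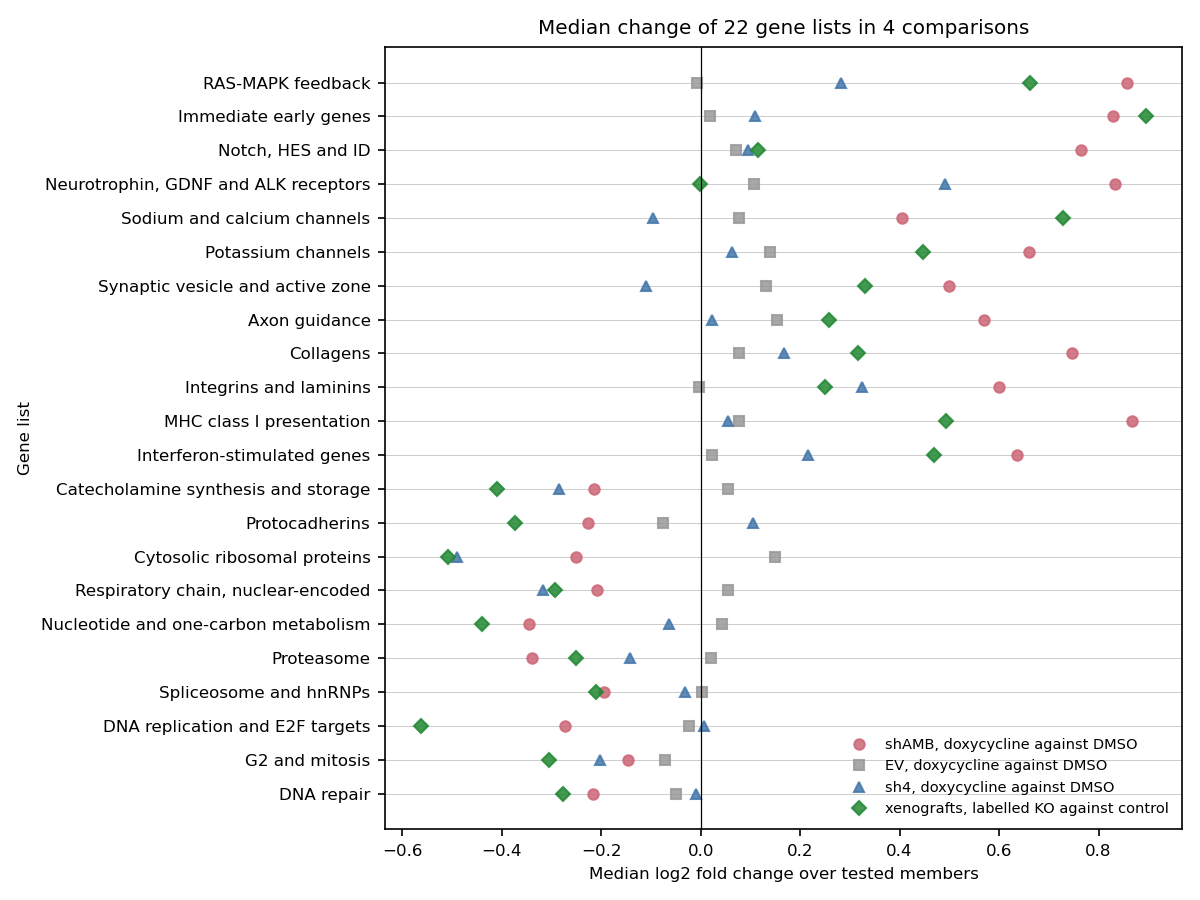
Median log2 fold change (horizontal axis) over the tested members of 22 gene lists in the shAMB, EV and sh4 lines with doxycycline against DMSO and in xenografts labelled knock-out against control. shAMB and xenograft medians lie on the same side of 0 in 21 of the 22 lists, and EV medians lie between −0.07 and 0.15. The 22 lists are a selection from the 60 lists with a tested member, so these counts do not describe all lists. Some lists not plotted had medians of opposite sign in shAMB and xenografts. Among them were the neuronal cytoskeleton (0.35 and −0.04), glycosaminoglycan synthesis (0.14 and −0.26) and replication-dependent histones (0.31 and −0.58).

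Short sequence words in the 3′ untranslated regions were counted as a further feature, for 10162 genes that averaged 5 CPM or more and had a GENCODE region. All 7-base words present in at least 50 of these genes were ranked by the standardised mean log2 fold change of the genes that hold them, after trends with region length and GC content were removed. This scan was chosen after the values had been seen, and the ranks carry no test. In shAMB the lowest of 16307 words was GAACCGT, held by 301 genes with a mean of −0.23 on the trend-removed log2 scale. Words that share 6 of its 7 bases in a row were at ranks 3, 4 and 5, and these ranks are not independent of its own. Of their holders 34.0%, 37.1% and 38.7% fell, against 34.8%, 34.7% and 34.7% of other genes. TACCCTA was at rank 2, and 45.3% of its 784 holders fell, against 33.9% of other genes. Of the holders of GAACCGT 42.5% fell and 28.9% rose, against 34.6% and 34.5% of the other genes, whose regions were shorter (median 2064 against 3203 bases). In the xenografts GAACCGT was again the lowest of all, with a mean of −0.16. It ranked 11577 in sh4, with a mean of 0.01, and 6273 in EV, with a mean of −0.0027. The lowest word in sh4 was GCTTGCT, with a mean of −0.16 over 1525 genes, and it ranked 2772 in shAMB (−0.02). None of the 10 genes ranked above for the largest falls held GAACCGT in the region examined. How these words relate to the hairpin sequences was not tested.

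Whether counting used the strand is not given in the sources used here. Exons of another gene on the same strand cover at least 20% of the exon sequence of IGF2 (43.2%), KIAA0101 (29.3%), PCDHAC1 (40.9%), PCDHAC2 (46.6%) and RPS10 (31.5%), and exons on the other strand cover as much of B4GALNT1 (27.1%), BAG2 (44.2%), ITGA4 (26.4%), MIR17HG (20.5%), NDUFS7 (51.4%), RPL30 (40.8%), RPS28 (20.6%), SYNM (27.8%) and WNT2B (21.5%), so that the levels of these genes are uncertain.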

How the data were processed

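RNA was taken from KELLY cultures after 72 h with doxycycline or DMSO (8 groups in all, with 3 libraries in each culture group and 4 in each xenograft group). Groups came from sample titles, since the genotype field of the shAMB samples numbers the gene name upwards as a spreadsheet fill would. Of these libraries the labels' extract protocol names a stranded total RNA kit, and their molecule field says polyA RNA. Per the labels' processing notes the authors used STAR, SAMtools and RSEM with hg38 (versions and annotation are not given in the sources used here) and deposited expected counts per gene, gene lengths and TPM. The TPM values deposited by the authors served only for an alternative on RUNX1T1, on log2(TPM + 1).

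Expected counts were rounded to whole numbers. edgeR 4.0.16 (R 4.3.3) was run with filterByExpr, TMM factors and the quasi-likelihood test over the 18 culture libraries together, and over the xenografts alone. Adjusted p-values are Benjamini-Hochberg over all tested genes. CPM are counts scaled to the TMM library size, and SEs are those of the fitted log2 fold changes. On simulated data 63% of 1.5-fold and 90% of 2-fold changes were recovered (100 genes each among 14672, 7 false calls). Far fewer genes changed in that simulation than were called in shAMB, so its rates need not hold for these libraries. Replicate numbers did not pair the samples (correlations of deviations −0.101 to 0.13 for equal numbers in shAMB). DESeq2 1.42.0, RLE factors, no filter, only the shAMB libraries, removal of length and GC trends, a replicate block, a 2-fold limit and leaving out single libraries were the alternatives.

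The genes under study, the 61 lists and the tests were chosen with earlier results of these data known. One list, of the mitochondrial genome, was not analysed here. Named genes were the 10 rises and 10 falls of largest size with a mean of at least 5 CPM, no overlap and a difference from EV, up to 2 rises and 2 falls per list with a mean of at least 1 CPM, the 5 largest gains and losses in CPM per kilobase, the 5 most opposite genes each way between shAMB and sh4 (at least 5 CPM), genes with at most 3 counts in one group and at least 30 in the other, and RUNX1T1, MYCN and MAX. Promoter sequences are those of RefSeq (GRCh38.p14), and untranslated regions those of GENCODE. The hairpin sequence was not used here. Results for some genes are not reported here.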

Additional observations from a re-analysis of the deposited data

Results flagged for a closer look

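The effect of doxycycline in shAMB was compared with that in sh4 for each gene, and a result is listed here when the difference itself passed the edgeR test (adjusted p under 0.05). This held for 9078 of the tested genes, 60.9% of them, so that a single difference sets no gene apart. The libraries of the 2 lines share no sample. Groups of 3 libraries were not checked for outliers.

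Among the strongest rises in shAMB, the log2 difference (shAMB effect minus sh4 effect) was 4.65 for SHISA2, 4.29 for EGR1, 4.45 for HMCN2, 2.86 for PNMA3, 3.91 for MCHR1, 4.10 for ARC, 3.73 for LONRF2, 3.14 for ASS1, 4.61 for VGF and 3.54 for KCNK9. Among the strongest falls it was −3.11 for C7, −2.51 for LRRC4C, −2.39 for ATOX1, −2.50 for KIAA0101, −2.39 for STMN1, −2.69 for KITLG, −1.49 for GPX3, −2.04 for NACA, −0.58 for PAQR8 and −2.12 for PHGDH.

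Among the remaining genes that were ranked for opposite calls the difference was 5.90 for CHRM1, 3.79 for TH, 2.99 for CAMKK1, 3.05 for SYT5, −3.78 for CARTPT, −2.28 for PPP1R3B, −2.78 for E2F7, −2.10 for DKK1 and −1.99 for ADAMTS9. Among abundant genes and MYCN with its partner it was 0.57 for IGF2, −0.37 for MAX, 0.89 for MYCN, −1.85 for PTMA, −1.43 for RGS5, 1.04 for RNA28S5, 0.74 for RPL27 and −0.49 for RPS24. PTMA and RGS5, with large falls in shAMB, had fold changes near 0 in sh4.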

How the results depend on the processing

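The count of changed genes in shAMB (9840) stayed within 1.5 times under RLE size factors, DESeq2, no filter on low counts, only the shAMB libraries and removed length and GC trends. It fell to 2662 when a change of at least 2-fold was also required. In EV 35 genes passed with the trends removed, against 14. RUNX1T1 in shAMB was then at 0.16 (adjusted p 0.0372), a rise, and leaving out single libraries gave 0.03 to 0.07. BBC3, a pro-apoptotic BCL2 family gene, turned to −0.21 with the trends removed (adjusted p 0.376). Without 1 of the 6 libraries, counts were 8816 to 9598 for shAMB, 6081 to 6568 for its difference from EV and 8200 to 9015 for its difference from sh4. Of the changed genes 56.9% were higher, and 50.4% under RLE size factors, 50.3% by DESeq2 and 51.1% with only the shAMB libraries. Of the 258 named genes other than RUNX1T1, 18 lost the threshold in at least 1 alternative.

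Replicate numbers are shared between groups, but equal numbers did not deviate together, so the block is an alternative only. With a replicate block 9756 genes changed in shAMB, 6617 differed from EV, 9003 differed from sh4 and 4929 changed in the xenografts, with RUNX1T1 at 0.06. No doxycycline library correlated best with the DMSO library of its own number. Depth was 38306162 to 54736733 counts a library, and recovery of 1.5-fold changes was incomplete in the simulation, in which far fewer genes changed than were called in shAMB.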

Other observations

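Genes of lower level that went from at most 3 counts in every shAMB DMSO library to at least 30 in every doxycycline library are named here after their values were seen. NPTX1, the neuronal pentraxin that gathers glutamate receptors at synapses, reached 51 to 68 counts with doxycycline. VWA5B2 reached 54 to 69 counts. LINC00619, a long non-coding RNA, reached 34 to 59 counts. None of these had over 6 counts in any EV or sh4 library.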
